A study of Homo sapiens with 4 samples.

Results

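The intervals described here are wide stretches of RNA that were listed as enriched for N6-methyladenosine (m6A) in smoke-exposed bronchial cells only after METTL3 knockdown. They were chosen by 2 properties of the lists. The width had to be over 300 nt, where width is the span between the listed borders, and how these were set is not stated. No overlap of 1 bp or more was allowed with the list from cells without knockdown, on the same chromosome and strand. This left 1472 of the 13691 intervals of the knockdown list. The list from cells without knockdown held 11038, and the 2 lists added up to 24729, each counted in full. The cells were 16-HBE, an established human bronchial epithelial line, and both groups had received 5% cigarette smoke extract (CSE) for 24 h. One group, called CSE here, had smoke extract alone and carries the label WT, and the other had smoke extract with siRNA against METTL3. A control siRNA is not named in the sample titles, so a response to transfection cannot be told apart from one to less METTL3. Unexposed cells are not among the samples, so an effect of smoke extract cannot be assessed. Each group had an IP and an input library, 4 samples in all. The design text speaks of 3 replicates, but 1 interval list per group was analysed, so no value has a replicate spread and no test between the groups was possible.

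As background, m6A is written on messenger RNA while it is being made by a complex in which METTL3 is the catalytic subunit and METTL14 its partner that helps bind RNA. The mark lies mostly near stop codons and in long exons, and reader proteins of the YTH family bind it and affect splicing, translation and decay of the transcript. MeRIP-seq finds it by comparing antibody-precipitated RNA fragments (IP) with unprecipitated ones (input), at a resolution of fragments and not of single bases. An interval in 1 list and not in the other can differ in methylation, in the amount of the transcript, or in which calls were kept, and the lists hold no expression values that could tell these apart. The METTL3 transcript level is not in the lists either, so the knockdown itself was not checked. Positions are hg19, counted from 1, and genes, transcript parts and base sequences at these positions were not analysed here.

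Of the 5669 wide intervals in the knockdown list, 26% had no overlap in the CSE list. In the opposite direction, 1204 of 5399 wide CSE intervals had no overlap in the knockdown list, or 22.3%. Both shares are set by the rule and describe these 2 lists.

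The 1472 intervals covered 1.57 Mb, with 763 on the plus and 709 on the minus strand. Their median width was 732 nt (95% order-statistic interval 699 to 772), with quartiles of 462 and 1318 nt and a range from 301 to 21693 nt. Wide knockdown intervals that overlapped the CSE list had a median of 1018 nt (976 to 1058), and wide CSE-only intervals one of 875 nt (821 to 921). The knockdown-only intervals were thus the narrowest of these 3 wide sets. At the width threshold, 3 intervals of 301 nt were included, with scores from 69.89 to 151.83, and 1 interval of 300 nt with a score of 50.26 was not. At the overlap threshold, 1 included interval lay within 10 nt of a CSE interval and scored 1809, and 1 wide interval that was not included had under 10% of its width overlapped and scored 108.

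Since the rule uses width and overlap, the share of wide knockdown intervals without a CSE counterpart is given by width only as a description. It was 34.6% (Wilson 95% interval 32.0 to 37.3) at widths of up to 500 nt, where 427 of 1235 intervals were knockdown-only. From over 500 to 1000 nt it was 28.8% (26.7 to 30.9), with 511 intervals, and from over 1000 to 2000 nt 23.7% (21.6 to 25.9), with 362. Above 2000 nt it was 15.2% (13.3 to 17.4), with 172 of 1129 intervals. A wider interval has more bases at which 1 bp can be shared, and whether this bears on the shares was not tested. When 50% reciprocal overlap was required, 1557 wide intervals were knockdown-only, beside 1472 under the rule.

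Most of the intervals had low scores within their own list. The score is the authors' value for each interval on a scale that is not stated, and it is used here only to compare intervals within a list. The median was 142 (134 to 149), with quartiles of 82.4 and 295, beside 621 (584 to 654) for wide overlapping intervals. Short knockdown-only intervals, of up to 300 nt, had a median of 109 (105 to 112). Scores under 100 were held by 505 of the wide knockdown-only intervals, or 34.3%, and by 366 of the wide overlapping ones, or 8.72%. Wide CSE-only intervals were also low within their own list, with a median of 131 (124 to 140) beside 404 (376 to 430) for the wide overlapping intervals of that list, and 37.3% of them scored under 100. In the knockdown list, scores of 3100 or more, where values pile up, were held by 40 wide knockdown-only (2.72%) and 663 wide overlapping intervals (15.8%). The median score was 124 (109 to 142) at widths of up to 500 nt and 194 (164 to 240) above 2000 nt. Over the 1472 intervals the rank correlation of width with score was weak, with a Spearman's rho of 0.14. All of them come from the same libraries, and whether adjacent ones share a transcript was not analysed.

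**Figure D1:**
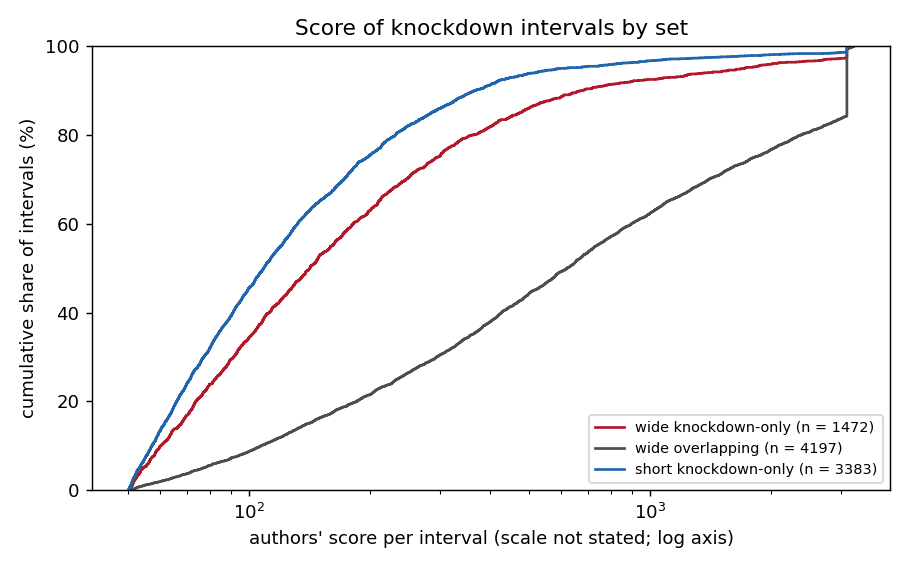
Cumulative share of intervals (%) against the authors' score on a log axis, for wide knockdown-only, wide overlapping and short knockdown-only intervals of the knockdown list. The wide knockdown-only curve, with a median of 142, runs between the short knockdown-only curve at 109 and the wide overlapping curve at 621.

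The whole knockdown list was also ranked by score and split into 10 equal classes. In the lower 5 of them lay 1084 of the wide knockdown-only intervals (73.6%). In the lowest class they made up 61.7% (56.8 to 66.3) of the wide intervals, 246 of 399. In the highest class they made up 5.84% (4.43 to 7.66), 48 of 822. The shares in the next 2 classes, 7.68% and 7.73%, were within counting error of each other. From the fourth class on the share was higher in each lower class. Score and overlap come from the same lists, so these shares describe the intervals and support nothing further.

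**Figure D2:**
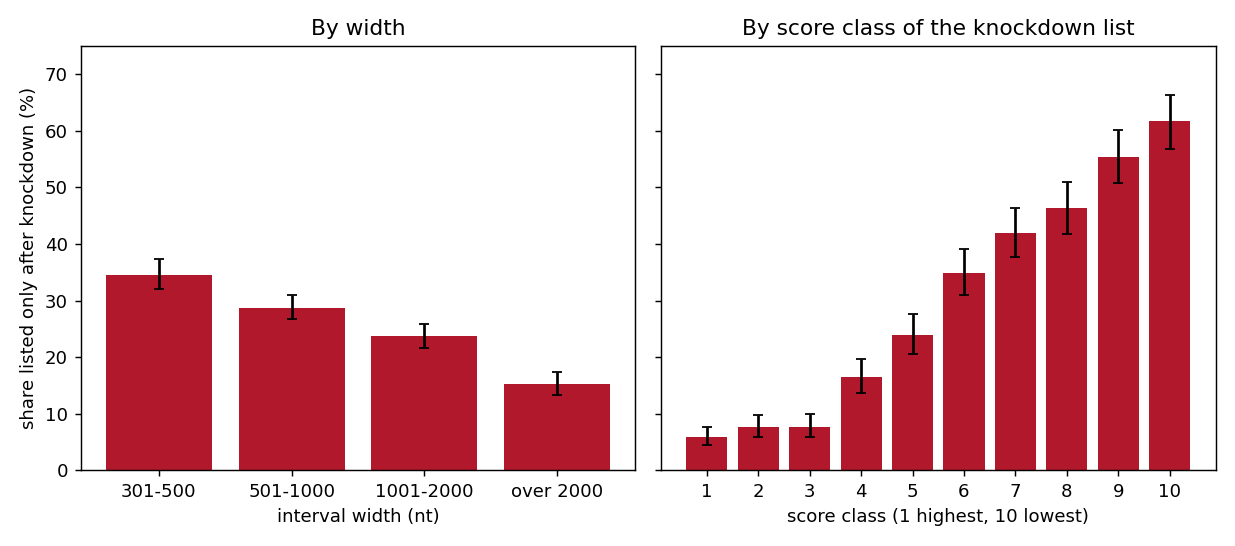
Share (%) of wide knockdown intervals that were listed only after knockdown, by width in nt (left) and by score class of the knockdown list (right), with Wilson 95% intervals as error bars. The share is 34.6% in the narrowest and 15.2% in the widest class, and 61.7% in the lowest score class. Width and overlap are used by the rule, so these shares are descriptions.

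The interval with the highest score lay at chr6:32948359-32949282 (plus strand). It was 924 nt wide, scored 3169.87, and ranked 29 in the knockdown list. It was the only listed interval of its neighbourhood, a stretch in which intervals of either list on 1 strand are joined over gaps of up to 10 kb. The nearest interval common to both lists on that strand lay 461383 nt away.

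A pair of intervals on the plus strand of chromosome 6 came next by score and width. Their extents were 31783291 to 31785719, at 2429 nt, and 31795512 to 31798031, at 2520 nt. Both scored 3100, they lay 9792 nt apart, and no other interval of either list fell in their neighbourhood. The nearest CSE interval on the strand was 46 nt wide, scored 3100 in its own list, and lay 68081 nt from the first and 80302 nt from the second. For each of them, only 1 running number was missing from the names of the CSE intervals that flank it on either strand. If the numbers count calls, at most 1 unlisted CSE call lies in that gap.

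The rest of the first 10 scored 3100 and were 1725 to 2342 nt wide. A score of exactly 3100 was held by 39 intervals, so their order here is by width. At chr1:181057638-181059979, plus strand, an interval of 2342 nt had its nearest CSE interval 992572 nt away. At chr2:241405475-241407495, plus strand, one of 2021 nt had it 580236 nt away. At chr20:48807120-48809227, plus strand, one of 2108 nt had it 317630 nt away. These 3 stood alone in their neighbourhoods, with 21, 24 and 23 unlisted CSE numbers between the flanking CSE intervals, so calls that were not listed may lie there.

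Shorter distances were found for the other 4. The interval of 2183 nt at chr17:7750864-7753046 (plus strand) lay 35076 nt from a CSE interval of 279 nt, which was common to both lists and scored 2391.74 in the knockdown list. The interval of 2066 nt at chr7:98992298-98994363 (minus strand) lay 36537 nt from a common interval of 141 nt, which scored 119.97 in the knockdown list. At chr19:49377575-49379299, plus strand, an interval of 1725 nt lay 28304 nt from a common interval of 108 nt. Also at chr19:13882935-13885096, plus strand, an interval of 2162 nt lay only 3769 nt from a common interval of 721 nt, which scored 3100 with knockdown as well. It was the only one of the first 10 with a CSE interval within 10 kb.

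Among the 40 intervals at 3100 or more, the median width was 785.5 nt and the range 309 to 2520 nt, and 14 chromosomes were represented. For 27 of the 40 the nearest CSE interval on the strand was over 10 kb away, and 11 of the 40 shared a neighbourhood with an interval common to both lists. Of all 1472 intervals, 37.1% lay over 10 kb to 100 kb away and 35.5% beyond 100 kb, and 23.9% shared such a neighbourhood. The eleventh by score and then width, 1596 nt at chr17:7416340-7417935 (plus strand), also scored 3100. It completes the 10 named here as over 10 kb from a CSE interval, with ties in score ordered by width. It lay 43673 nt from the nearest CSE interval, and 0 numbers were missing between the CSE intervals that flank it.

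The widest intervals did not have the highest scores. The widest of all, 21693 nt at chr19:9056173-9077865 (minus strand), scored 234.39. It ranked 7480 in the knockdown list and 465 among the 1472 wide knockdown-only intervals. It lay between 2 wide intervals common to both lists, 4680 nt (9045564 to 9050243) on one side and, on the other, 1 that measured 9413 nt in CSE and 9480 nt with knockdown. Both common intervals scored 3100 with knockdown, and within the CSE list their scores were 1190 and 493. The scores are not compared between the lists. The stretch also held a short knockdown-only interval of 114 nt and a short CSE-only interval of 36 nt, the latter 12711 nt away.

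The second widest, 18173 nt at chr11:62283374-62301546 (minus strand), scored 937 and ranked 115 among the 1472. A CSE-only interval of 188 nt with a score of 194.94 in its list lay 928 nt from it. The next 3 were 7757 nt at chr1:9323568-9331324 (plus strand), 7251 nt at chr2:202028206-202035456 (plus strand) and 6445 nt at chr11:65541369-65547813 (minus strand). Their scores were 326.07, 134.33 and 129.46, with ranks of 328, 772 and 793 among the 1472. Each of these 3 was alone in its neighbourhood, and their nearest CSE intervals lay 17947, 589505 and 136490 nt away.

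Most of the intervals stood apart from the CSE list. The median distance to the nearest CSE interval on the same strand was 44109.5 nt (38503 to 51437), with quartiles of 8707 and 206488 nt. It was over 100 kb for 522 of them (35.5%), up to 10 kb for 404 and up to 1 kb for 69. For wide CSE-only intervals, the median distance to the knockdown list was 36768 nt (30897 to 42859), and 32.5% lay over 100 kb from it. Short knockdown-only intervals lay nearer to the CSE list, at a median of 11637 nt (10749 to 12718), with 18.7% over 100 kb away. The lists differ in length and density, so the distances of the CSE-only set are not on the same footing.

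**Figure D3:**
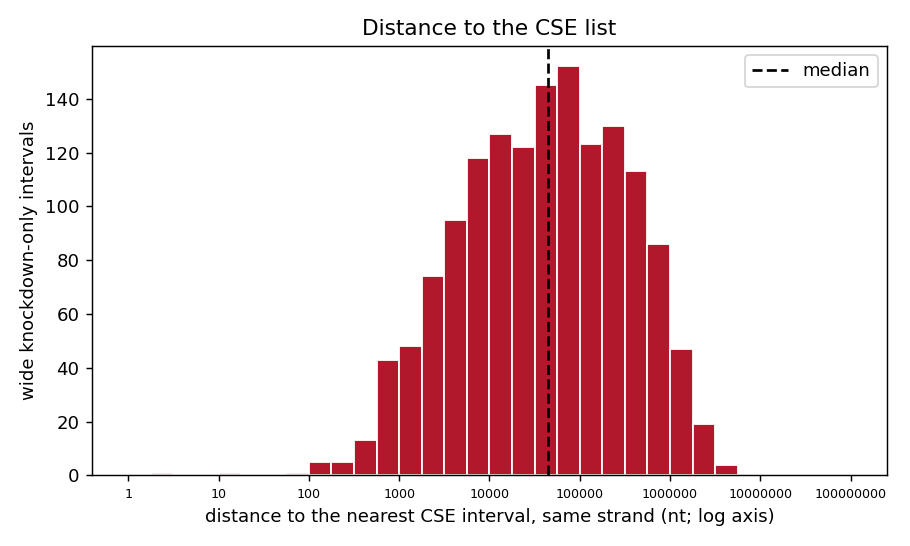
Number of wide knockdown-only intervals by distance in nt, on a log axis, to the nearest CSE interval on the same strand, with the median as a dashed line. Distances spread over several orders of magnitude around the median of 44109.5 nt.

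The median width was 620 nt (487 to 872) up to 1 kb from the CSE list, 617 nt (561 to 686) at over 1 kb to 10 kb and 793 nt (735 to 899) beyond 100 kb. The counting interval of the nearest class, with 69 intervals, overlapped that of the most distant one. The median scores in these 3 classes were 188 (130 to 240), 147.8 (135 to 173) and 138 (125 to 155), and their counting intervals overlapped. At over 10 kb to 100 kb, with 546 intervals, the median width was 776 nt (696 to 869) and the median score 137.5 (125 to 149).

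By neighbourhood, 928 of the intervals (63.0%) were the only listed interval, beside 61.4% of wide CSE-only and 36.3% of short knockdown-only intervals. Of the 1472 intervals, 352 (23.9%, Wilson 95% interval 21.8 to 26.2) were joined with an interval common to both lists. The share joined in this way was 24.4% (22.1 to 26.9) among wide CSE-only intervals and 45.8% (44.1 to 47.5) among short knockdown-only intervals. The counting intervals of both wide sets overlapped each other and lay below that of the short set. A short knockdown-only interval was in the neighbourhood of 192 of the wide ones, and a CSE-only interval in that of 134. On the other strand, 3 overlapped a CSE interval and 0 overlapped a knockdown interval.

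Over the knockdown list, the median score was 142 for wide knockdown-only, 621 for wide overlapping and 436 for short overlapping intervals. Where a wide knockdown-only interval had a common interval in its neighbourhood, it likewise usually had the lower score. This was so for 268 of 352 (76.1%, 71.4 to 80.3), with a median of 152 beside 529 for the nearest common interval, both from the knockdown list. The other 84 scored at least as high. Among them, an interval of 725 nt at chr6:89790429-89791153 (plus strand) scored 3100, and the common interval of 1408 nt that lay 2318 nt away scored 443.6. An interval of 719 nt at chr14:105350168-105350886 (plus strand) also scored 3100, and the common interval of 139 nt that lay 3405 nt away scored 195.76. These examples were picked after their values were seen. Whether the share of 76.1% differs from that of pairs taken elsewhere in the list was not tested.

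The intervals were scattered and rarely grouped. They fell in 1418 neighbourhoods, of which 1367 held 1 and 51 held at least 2. The largest group had 4, at chr11:57426927-57440666 (plus strand), with widths from 441 to 1174 nt. Their scores, in order of position, were 51.54, 137.38, 168.24 and 364.73, and neither list held any other interval in that stretch. That no CSE interval overlapped any of these 4 was set by the rule, and the group was picked for its size. How often intervals of other sets are grouped was not analysed.

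A group of 3 lay at chr11:66452723-66468753 (minus strand), with widths of 1189, 375 and 757 nt and scores of 1430.24, 406.89 and 372.12. It stood between common intervals of 1532, 871 and 303 nt, whose scores in the knockdown list were 577.83, 530.34 and 591.29. These common intervals had the same borders in both lists. A short CSE-only interval of 261 nt, with a score of 51.08 in its list, and a short knockdown-only one of 203 nt lay among the 3. The first of the 3 scored above each of the common intervals around it. Of the pairs, the widest by summed width was on the minus strand of chromosome 13, with 3219 nt (23907801 to 23911019) and 4091 nt (23911739 to 23915829). Their scores were 86.61 and 231.41, and no other interval was listed in that neighbourhood. On the plus strand of chromosome 19, intervals of 1849 nt (10794593 to 10796441) and 3241 nt (10799855 to 10803095) formed another pair without any other listed interval, at scores of 69.16 and 2185.56.

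The interval names carry running numbers that rose with position along every chromosome in both lists, and many numbers are unlisted. Between the CSE intervals that flank a wide knockdown-only interval on either strand, the median count of unlisted CSE numbers was 7, with quartiles of 3 and 13 and a maximum of 99, over 1465 intervals with flanks on both sides. For 52 of them (3.55%) it was 0. If the numbers count calls, these 52 lie where the CSE condition had no call, listed or unlisted, and for the others an unlisted CSE call at the position cannot be told apart from none. Among the 52, the 3 with the highest score and width were the one on chromosome 17 given above, one of 1290 nt at chr11:10529434-10530723 (minus strand) and the one of 719 nt on chromosome 14. All 3 scored 3100.

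Of the 1472 intervals, 1471 lay on chromosomes 1 to 22 and X, where they made up between 19.0% and 30.9% of the wide knockdown intervals of a chromosome. The 1 other interval lay elsewhere and is left out of these shares. The lowest share was on chromosome 21, 12 of 63 (Wilson 95% interval 11.2 to 30.4), and the highest on chromosome 2, 110 of 356 (26.3 to 35.9). These intervals overlap. Chromosome 1 held the largest number, 154 of 577, followed by chromosome 2 with 110 and chromosome 19 with 99 of 394. Median scores per chromosome ran from 106 on chromosome 18, over 21 intervals, to 213 on chromosome 20, over 35.

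**Figure D4:**
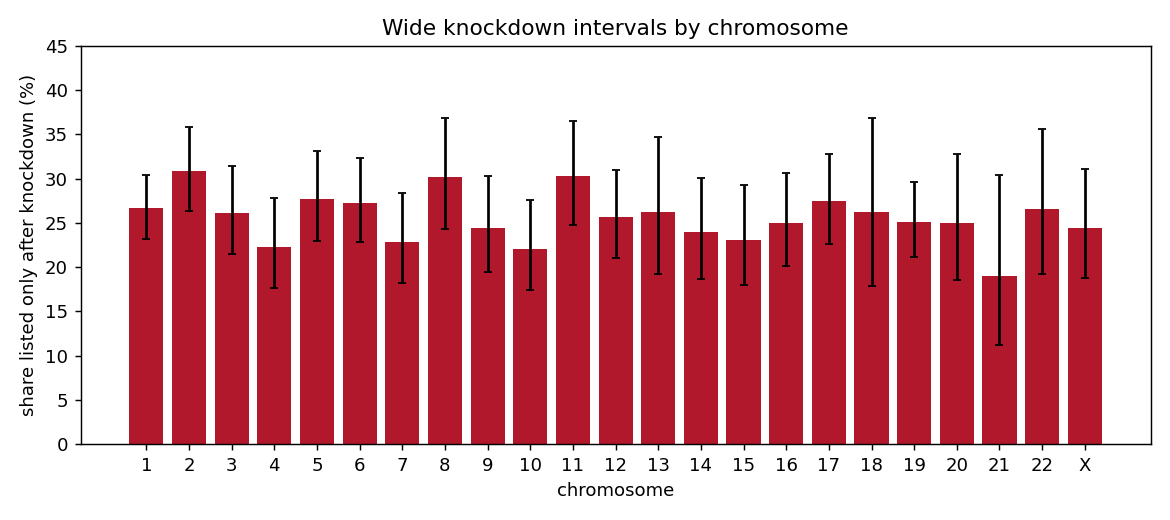
Share (%) of wide knockdown intervals that were listed only after knockdown, for chromosomes 1 to 22 and X, with Wilson 95% intervals as error bars. The share lies between 19.0% on chromosome 21 and 30.9% on chromosome 2.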

How the data were processed

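Poly(A) RNA was precipitated with an m6A antibody and sequenced beside input RNA, per the labels' protocols. The submitters' processing notes name the aligner HISAT2 2.0.4 and the build hg19. The 2 deposited interval lists have 6 columns and no header, with names that begin with MACS, a peak caller but no sources used here state its settings. The deposited score is the authors' value per interval, lowest 50.02 in both lists, and was compared only within a list. Depth is unknown. Overlap was computed in Python 3.11.15 with pandas 2.3.3 and checked against bedtools. Shares have Wilson and medians order-statistic 95% intervals (scipy 1.17.1), which cover counting error only and treat intervals as independent. The reference at hand was of another build, so gene, transcript-part, motif and sequence results were not run, and intervals are named by position: the 10 with the highest score (ties by width, then position), the 5 widest, and the 10 with the highest score and no CSE interval within 10 kb. The intervals, and these rules, were chosen with earlier results of these data known. Alternatives covered overlap, strand, width and score.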

Additional observations from a re-analysis of the deposited data

How the results depend on the processing

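Across 7 alternatives 35 values were recomputed: 18 lay within the main value's counting interval (for the number of intervals, within a ratio of 1.5) and 17 did not. Medians move with the width or score limits that select the intervals. The median distance to the CSE list was 38044 nt when 50% reciprocal overlap was required, which leaves some intervals at a distance of 0, and 30068 nt when either strand counted. At widths over 500 nt the median width was 1028 nt, the distance 56742 nt and the share beside a common interval 21.1%. At widths over 200 nt the median width was 500.5 nt, the median score 130.56, the distance 34454.5 nt and the share 28.4%. In the upper 50% of the knockdown list by score, 388 intervals were left, with a median width of 861.5 nt, a median score of 523.07, a distance of 35511 nt and a share of 26.8%. At scores of at least 100, 967 were left, with a median width of 777 nt and a median score of 223.53. The limit of 100, the width, score and proximity settings for the distance, and every alternative for the share were added after the data had been seen. Alternatives on motifs, transcript parts and genes were not run, since the reference was of another build. No paired analysis was possible because there is 1 interval list per condition. Depth is unknown, so whether an interval went unlisted in CSE for lack of reads was not tested.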
